A study of Homo sapiens with 3 samples.

Results

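The 10 genes described here encode members of activator protein-1 (AP-1): FOS, FOSB, FOSL1, FOSL2, JUN, JUNB, JUND, ATF3, BATF and MAFF. They were chosen by name, as the FOS and JUN families with ATF3, BATF and the small MAF protein gene MAFF. All 10 were found among the 29689 gene symbols of an RNAseq table. The table holds tumors of SUM-149, a triple-negative breast cancer (TNBC) cell line, which were grown in mammary fat pads of female Nu/Nu mice after the cells had been mixed with Matrigel. There were 3 libraries, 1 per condition. One tumor library was from mice given vehicle, one from mice given the CDK2 inhibitor dinaciclib for 10 days (CDK2i), and one from mice given an EZH2 inhibitor for 10 days (EZH2i). The sample labels name the EZH2 inhibitor as EPZ6438, while the legend of the study's tumor growth experiment on SUM-149 names GSK343. The age of the mice and whether a library pooled several tumors are not given in the sources used here.

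AP-1 is a dimer of basic leucine zipper (bZIP) proteins that binds DNA at TGANTCA and related sites. FOS proteins need a JUN partner to bind, whereas JUN proteins can also pair with each other, and ATF3, BATF and the small MAF proteins join the same network with other partners. FOS, FOSB, JUN, JUNB and ATF3 are known as immediate early genes, whose transcripts appear within minutes of a growth factor, cytokine or stress signal and then decay. FOSL1 responds more slowly and is known for its high level in basal-like breast cancer cells. Dinaciclib inhibits several cyclin-dependent kinases, and EZH2 is the methyltransferase of Polycomb repressive complex 2.

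The promoters of these genes hold known binding sites for the factors that carry such signals, so the DNA before their start sites is shown here ahead of the expression values. The RefSeq table gave start sites for 9 of the 10 genes, and FOSL1 was not among them, so its promoter was not searched. Each window was placed on GRCh37, the build of the expression table, by its single exact match. The 120 bases before the start site are printed 5′ to 3′ for the 4 genes with the largest differences in the CDK2i tumor, of which JUNB had no match. Capitals mark TGACGT, the core of a cyclic AMP response element (CRE), or TGACATCA, an AP-1-like site. Apart from 1 or 2 bases at the start site, these windows lie outside annotated exons. That of JUNB lies within the HOOK2 gene, and that of FOSB at least partly within the ERCC1 gene. Both of these genes are read from the opposite strand.
FOS, chr14:75745411-75745530, plus strand: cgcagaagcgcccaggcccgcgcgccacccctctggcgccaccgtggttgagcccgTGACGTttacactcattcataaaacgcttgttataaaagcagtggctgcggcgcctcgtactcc
FOSB, chr19:45971134-45971253, plus strand: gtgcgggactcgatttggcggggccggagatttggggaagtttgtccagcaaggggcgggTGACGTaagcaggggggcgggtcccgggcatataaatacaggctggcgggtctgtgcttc
JUN, chr1:59249720-59249839, minus strand: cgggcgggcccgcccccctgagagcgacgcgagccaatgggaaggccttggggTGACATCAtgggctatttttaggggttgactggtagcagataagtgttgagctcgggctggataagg
JUNB, chr19:12902180-12902299, plus strand: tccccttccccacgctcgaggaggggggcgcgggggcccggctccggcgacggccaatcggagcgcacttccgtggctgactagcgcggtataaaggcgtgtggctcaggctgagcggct
Over the 250 bases before the start and on both strands, TGACGT was found in 5 of the 9 genes, namely FOS, FOSB, FOSL2, JUND and MAFF, against 7.09% of all 34943 RefSeq start sites. The full CRE, TGACGTCA, which contains that core, was found in JUND and MAFF, against 1.63% of all start sites. TGACATCA was found in JUN and ATF3, against 2.37%. In FOS the match began 64 bases before the start, in FOSB 60, in FOSL2 66, in JUN 67 and in MAFF 54. No window of the 9 genes held TGANTCA or a CArG box, the site of serum response factor, which were found in 6.59% and 1.16% of all start sites. Only exact matches within these 250 bases were searched. Whether the genes have such sites further from the start was not looked at. These counts are of genes with a match at any start site, whereas the percentages are of start sites. ATF3 and MAFF had 2 start sites each. The genes with a match were far apart in expression change, from FOS to FOSL2.

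The deposited values are log2 FPKM, fragments per kilobase of transcript, scaled to sequencing depth, so levels of different genes can be set side by side. By the steps of 1 fragment among low values, the libraries stood for 16.8 M (vehicle), 19.1 M (CDK2i) and 17.5 M (EZH2i) fragments. With 1 library per condition no change has a replicate error and no p-value was computed. The intervals below are 95% counting intervals from approximate fragment numbers, and they do not cover the spread between tumors. An effect of an inhibitor and a difference between single tumors cannot be told apart. To be called higher or lower, a gene had to differ more than 2-fold and to exceed log2 FPKM 3 (8 FPKM) in at least one of the libraries compared. These are the study's thresholds, without its p-value. A gene above the minimum in only 1 of the libraries compared could be called in 1 direction only. This holds for the shares over all genes too. All 11 epithelial markers on a fixed list (such as KRT5, KRT14 and EPCAM) were above log2 FPKM 3 in every library. In bulk tumor RNA, fewer cells of a type and less RNA per cell cannot be told apart.

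In the CDK2i tumor, 7 of the 10 AP-1 genes were called higher than in the vehicle tumor and none lower. FOS, JUNB, FOSB and JUN had the largest differences, from 7.17-fold for JUN to 25.0-fold for FOS, and FOSL1, MAFF and JUND were 2.16-fold to 2.41-fold higher. FOSL2 was nearly level, ATF3 was 3.47 times the vehicle value but below the expression minimum, and BATF was barely detected. Of all 6632 genes that could have passed, 3.27% were called higher and 8.07% lower. Of the members, 8 could have passed. FOSB was among them through its CDK2i value alone, so it could pass only by being higher. The median log2 change over the 9 members with values in both libraries was 1.79, against −0.11 over 11109 expressed genes (mean log2 FPKM above 1 and detected in all libraries). ATF3 was one of the 9 though not among the expressed genes, and it was itself the member at the median.

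In the EZH2i tumor, only FOSL1 was called higher and no member was called lower, by the same thresholds. Of the 7414 genes that could have passed, 8.93% were called higher and 4.42% lower, so 1 of the 7 members that could have passed was close to the background. The median log2 change of the 9 members was −0.40, against 0.19 over all expressed genes. FOS and FOSL1 were above their vehicle values and the other 7 below. With the trend over GC content and transcript length removed, the medians were −0.02 and 0.02, so this difference was not kept. JUNB and MAFF were then also above vehicle, at 0.03 and 0.15. Both comparisons use the same vehicle library.

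**Figure D1:**
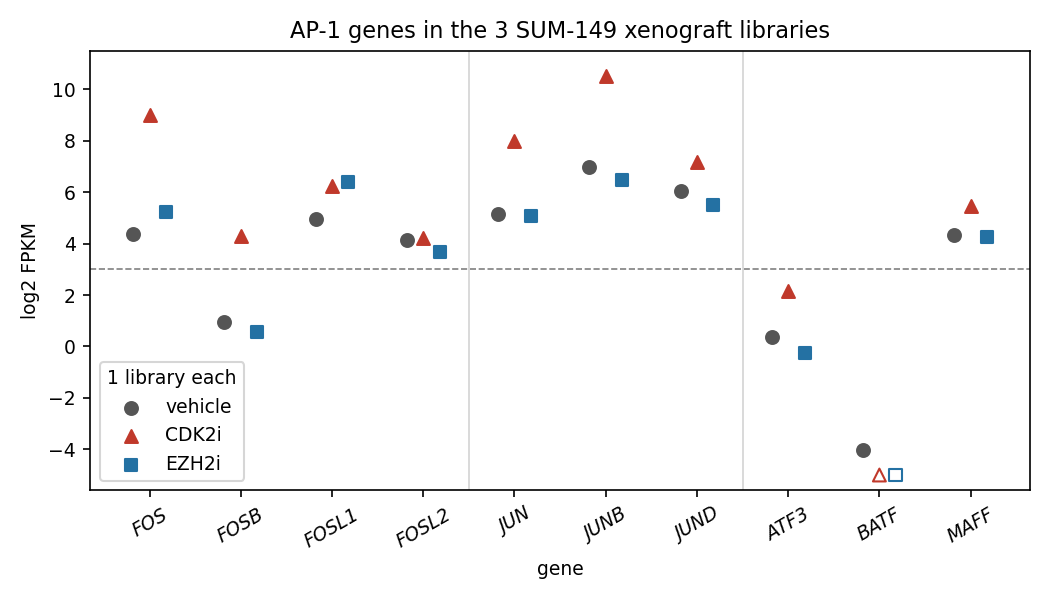
The log2 FPKM of each of the 10 AP-1 genes (x axis) is plotted for the vehicle (circles), CDK2i (triangles) and EZH2i (squares) libraries, 1 point per library. Open symbols at the lower edge mark BATF listed at 0, and the dashed line is the minimum of log2 FPKM 3. JUNB in CDK2i was the highest value at 10.51, and the CDK2i point stood clear above the other two in FOS, FOSB, JUN, JUNB, JUND, ATF3 and MAFF.

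FOS, the prototype immediate early member (chromosome 14 of GRCh37, 75745529 to 75748933, plus strand), measured 20.5 (vehicle), 511 (CDK2i) and 37.3 FPKM (EZH2i). The CDK2i value stood far above both others. Its log2 change was 4.64 in CDK2i (counting interval 4.53 to 4.75), the fourth largest increase of the 6632 genes, and 0.87 in EZH2i (0.74 to 1.00). In EZH2i FOS stayed under the fold threshold with the deposited scaling. It passed it, at 1.11, when the summed FPKM of the libraries was made equal.

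FOSB (chromosome 19, 45971253 to 45978437, plus strand) encodes a close relative of FOS that is likewise induced within minutes. It measured 1.96 (vehicle), 19.5 (CDK2i) and 1.48 FPKM (EZH2i). The vehicle and EZH2i values lay side by side, from about 124 and 98 fragments, and CDK2i stood apart with about 1412. The log2 change was 3.32 in CDK2i (3.05 to 3.60) and −0.40 in EZH2i (−0.80 to −0.01). FOSB overlaps ERCC1 on the opposite strand, and whether counting used strand is not given in the sources used here. ERCC1 had log2 changes of 0.22 (CDK2i) and −0.21 (EZH2i).

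FOSL1 encodes FRA-1, which lacks the transactivation domain of FOS, and lies on chromosome 11 (65659520 to 65668044, minus strand). It measured 31.2 (vehicle), 75.2 (CDK2i) and 84.4 FPKM (EZH2i). Both treated tumors were thus above the vehicle tumor and close to each other, and FOSL1 was the one member called higher in both. The log2 change was 1.27 in CDK2i (1.16 to 1.38) and 1.44 in EZH2i (1.33 to 1.55). FOSL1 passed the thresholds in both under each scaling tried, with ranges of 1.12 to 1.47 and 1.22 to 1.82. The direct difference between EZH2i and CDK2i was 0.17 and took either sign with the scaling, from −0.22 to 0.35.

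FOSL2 encodes FRA-2, the remaining family member (chromosome 2, 28615315 to 28640184, plus strand). It measured 17.6 (vehicle), 18.7 (CDK2i) and 12.6 FPKM (EZH2i). The log2 change was 0.09 in CDK2i (0.00 to 0.18), and it was −0.06 when summed FPKM was equalized over genes other than those for ribosomal proteins and mitochondrial transcripts. In EZH2i it was −0.48 (−0.58 to −0.38). FOSL2 was called in neither tumor.

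**Figure D2:**
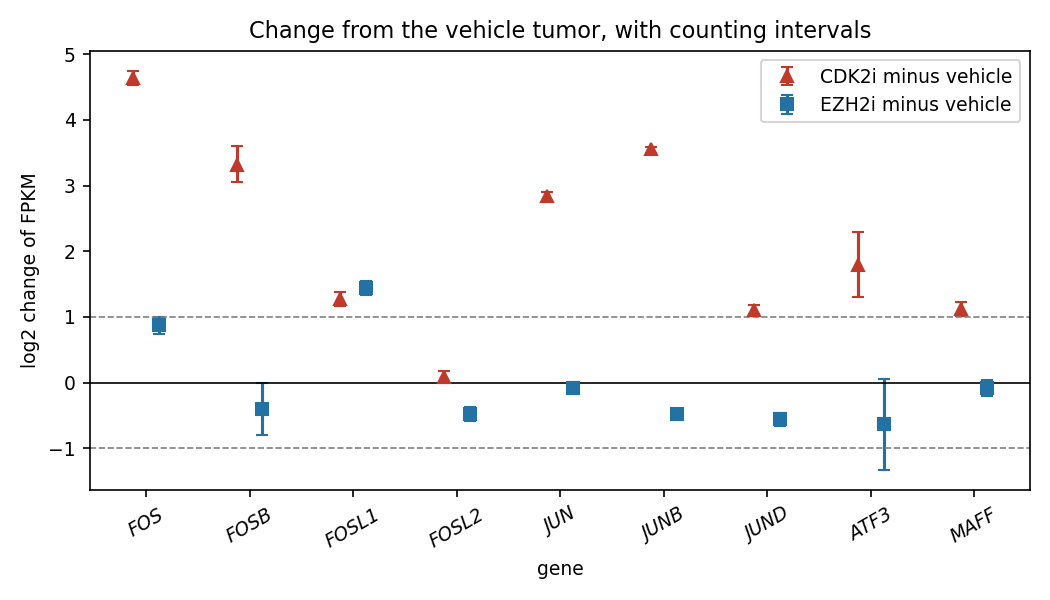
The log2 change of FPKM from the vehicle tumor (y axis) is plotted for 9 AP-1 genes (x axis) in CDK2i (triangles) and EZH2i (squares). Bars are 95% counting intervals of 1 library against 1 library, and dashed lines mark the 2-fold threshold. FOS reached 4.64 and JUNB 3.55 in CDK2i, whereas in EZH2i FOSL1 at 1.44 was the single point beyond a dashed line.

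In the JUN family all 3 genes were called higher in CDK2i and none was called in EZH2i. JUNB, a JUN protein that is a weaker activator than JUN, lies on chromosome 19 (12902300 to 12904129, plus strand). It measured 125 (vehicle), 1461 (CDK2i) and 89.8 FPKM (EZH2i), the highest member in each library. In CDK2i 99.9% of all listed genes were below it. The log2 change was 3.55 in CDK2i (3.50 to 3.59), the ninth largest increase. In EZH2i it was −0.48 (−0.55 to −0.41) and ran from −0.69 to 0.03 over the alternatives. JUNB overlaps HOOK2 on the opposite strand in the annotation, and HOOK2 had log2 changes of −0.26 (CDK2i) and −0.25 (EZH2i).

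JUN, the main transactivating partner of FOS and a substrate of JNK (chromosome 1, 59242517 to 59249720, minus strand), measured 35.4 (vehicle), 254 (CDK2i) and 33.5 FPKM (EZH2i). The vehicle and EZH2i values were within counting error, with a log2 change of −0.08 (−0.17 to 0.01) that ran from −0.30 to 0.16 over the alternatives. The log2 change in CDK2i was 2.84 (2.77 to 2.91). JUND, the member known for steady expression in resting cells (chromosome 19, 18390504 to 18392432, minus strand), measured 66.8 (vehicle), 144 (CDK2i) and 45.3 FPKM (EZH2i). Its log2 change of 1.11 in CDK2i (1.04 to 1.18) lay just past the fold threshold. It was 0.86, below the threshold, with the trend over GC content and transcript length removed. It was also not called when the summed FPKM was equalized over genes other than those for ribosomal proteins and mitochondrial transcripts, termed the reduced-sum scaling here. In EZH2i it was −0.56 (−0.66 to −0.47), and −0.02 with the trend removed. JUN, JUNB and JUND have 1 exon each, as do 6.05% of genes with a coding transcript.

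MAFF, a small MAF protein without an activation domain (chromosome 22, 38596774 to 38612514, plus strand), measured 20.4 (vehicle), 44.1 (CDK2i) and 19.3 FPKM (EZH2i). The log2 change was 1.12 in CDK2i (1.02 to 1.22), and 0.97 under the reduced-sum scaling. In EZH2i it was −0.08 (−0.20 to 0.04) and ran from −0.29 to 0.16 over the alternatives. MAFF overlaps PLA2G6 on the opposite strand, which had log2 changes of 0.23 (CDK2i) and −0.13 (EZH2i). The other small MAF genes were nearly level in CDK2i. MAFG was at 19.3, 21.2 and 25.7 FPKM in vehicle, CDK2i and EZH2i, and MAFK at 16.6, 16.6 and 18.9. These 2 genes were singled out after their values were seen.

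ATF3 and BATF were the low members. ATF3, a stress-induced bZIP protein known as a repressor (chromosome 1, 212738676 to 212794119, plus strand), measured 1.29 (vehicle), 4.49 (CDK2i) and 0.836 FPKM (EZH2i), about 46, 181 and 31 fragments. The log2 change of 1.79 in CDK2i (1.31 to 2.29) was past the fold threshold, but the level was too low for a call. The change in EZH2i was −0.63, and its counting interval of −1.34 to 0.06 covered no change. BATF, a factor known from lymphocytes (chromosome 14, 75988798 to 76013336, plus strand), was at 0.0608 FPKM in vehicle, about 1 fragment, and listed at 0 in CDK2i and EZH2i. A count of 0 allows up to 0.172 FPKM in CDK2i and 0.188 in EZH2i, so no change of BATF was detectable at this depth. BATF lies 239.9 kb from FOS on chromosome 14.

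The libraries also differed in which member led each family. In vehicle, FOSL1 made up 43.9% of the summed FPKM of the FOS family, FOS 28.8%, FOSL2 24.7% and FOSB 2.75%. In CDK2i FOS made up 81.8% and FOSL1 12%. In EZH2i FOSL1 made up 62.1% and FOS 27.5%. FOS was thus above FOSL1 in CDK2i, by 6.79 times, and below it in vehicle and EZH2i, where FOSL1 was 1.53 and 2.26 times FOS. Shares within a library do not depend on the scaling between libraries. JUNB led the JUN family throughout, with 55.0% in vehicle, 78.6% in CDK2i and 53.3% in EZH2i. JUND was above JUN in vehicle and EZH2i, by 1.89 and 1.35 times, and JUN was above JUND in CDK2i, by 1.76 times.

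**Figure D3:**
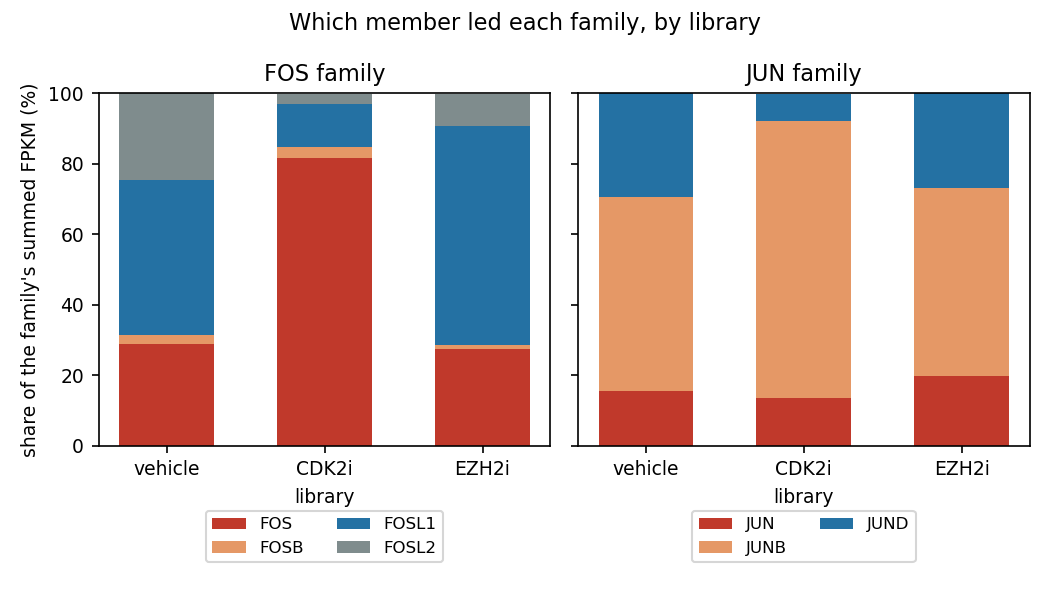
Stacked bars give each member's share (y axis, %) of the summed FPKM of the FOS family (left) and the JUN family (right) in each of the 3 libraries (x axis). FOS took 81.8% of its family in CDK2i against 28.8% in vehicle and 27.5% in EZH2i, and JUNB was the largest part of the JUN family in all 3.

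Summed over all 10 genes, the AP-1 level was 320.1 (vehicle), 2532 (CDK2i) and 325 FPKM (EZH2i). This was 7.91 times vehicle in CDK2i and 1.01 times in EZH2i. In CDK2i both families were higher by about the same factor, 8.77 times for FOS and 8.18 times for JUN. In EZH2i they moved apart, with 1.91 times for the FOS family and 0.742 times for the JUN family with the deposited scaling. Another scaling between libraries moves both families alike. With the trend over GC content and transcript length removed, the JUN family was nearly level in EZH2i. The log2 changes there were −0.02 for JUN, 0.03 for JUNB and −0.02 for JUND. In the FOS family they were then 1.82 for FOSL1, 0.97 for FOS, −0.34 for FOSB and −0.76 for FOSL2. Summed JUN family transcripts exceeded those of the FOS family 3.19 times in vehicle, 2.98 times in CDK2i and 1.24 times in EZH2i.

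Compared directly, the EZH2i tumor was lower than the CDK2i tumor in 6 called members (FOS, FOSB, JUN, JUNB, JUND and MAFF) and higher in none. Of the 7394 genes that could have passed this comparison, 6.53% were called lower and 17.5% higher. Of the members, 8 could have passed. FOSB was again among them through its CDK2i value alone, so here it could only be called lower. JUNB was 16.3-fold lower in EZH2i than in CDK2i, FOS 13.7-fold, FOSB 13.2-fold and JUN 7.58-fold. On the log2 scale these differences were −4.02 (−4.08 to −3.97), −3.77 (−3.85 to −3.70), −3.72 (−4.03 to −3.43) and −2.92 (−2.99 to −2.85). The median over 9 members was −2.43, the value of the lowly expressed ATF3, against 0.35 over expressed genes. JUND, at −1.67, was called except with the trend over GC content and length removed, where it was −0.88.

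When each library was centred on its median gene, the changes in CDK2i were 4.81 for FOS, 3.72 for JUNB, 3.49 for FOSB, 3.01 for JUN, 1.44 for FOSL1, 1.29 for MAFF, 1.28 for JUND and 0.26 for FOSL2. In EZH2i they were 0.65 for FOS, 1.22 for FOSL1 and below 0 for the other 7. The same 7 members were called higher in CDK2i after centring, and 5 were (FOS, FOSB, FOSL1, JUN and JUNB) under the reduced-sum scaling.

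Other genes of the AP-1 network were taken from fixed lists. Of 42 further immediate early genes, 20 of the 35 that could have passed were called higher in CDK2i and none lower, against the 3.27% and 8.07% of all genes. Of the 42, 27 were above log2 FPKM 3 in vehicle and 35 in CDK2i. Those above it in CDK2i but not in vehicle, such as SOCS3, could only be called higher. The largest differences were in DUSP1, a phosphatase of MAP kinases (log2 FPKM 3.15 in vehicle and 7.57 in CDK2i), IER3 (6.72 and 10.53) and SOCS3, a feedback inhibitor of cytokine signaling (2.49 and 5.93). In EZH2i 4 of 31 were called higher, MCL1, TNFAIP3, NFKBIZ and PHLDA1, and EGR1 was called lower, against 8.93% higher and 4.42% lower over all genes, so these counts were near the background. The zinc finger factor EGR1 measured 72.4 (vehicle), 439.6 (CDK2i) and 29.6 FPKM (EZH2i). The median log2 change of the 38 expressed genes was 1.13 in CDK2i and 0.19 in EZH2i.

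Of the known AP-1 target genes on the list, 9 of 24 that could have passed were called higher in CDK2i and 8 of 23 in EZH2i, with none lower in either. Over all genes that could have passed, 3.27% were called higher in CDK2i and 8.93% in EZH2i. HBEGF, a ligand of EGFR, was at 9.66, 63.0 and 31.8 FPKM in vehicle, CDK2i and EZH2i. The gelatinase gene MMP9 was at 20.0, 102 and 56.4, and PLAU, the urokinase gene, at 19.0, 45.0 and 80.1. HBEGF, MMP9 and PLAU were each called higher in both tumors. IL8, which encodes a neutrophil chemokine, measured 14.2 (vehicle), 23.3 (CDK2i) and 219 FPKM (EZH2i), a log2 change of 3.94 in EZH2i and 0.71 in CDK2i. The collagenase gene MMP1 was at 1.78, 5.01 and 9.56 FPKM, so it passed the minimum through its EZH2i value alone. The keratinocyte genes IVL, SPRR1A, SPRR1B, KRT6A and KRT16 were called in CDK2i alone, by the thresholds and not by a test of the difference. IVL and SPRR1A were above the expression minimum in CDK2i alone, so they could only be called higher. SPRR1B, a cornified envelope precursor, differed by 2.22 on the log2 scale.

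Of 36 other bZIP genes on the list, 16 could have passed in CDK2i. Of these, 1 was called higher and 3 lower (NFE2, NFE2L2 and XBP1), against 3.27% and 8.07% of all genes. NFE2, a partner of small MAF proteins, changed by −2.69 in CDK2i and −1.37 in EZH2i. XBP1, a factor of the unfolded protein response, was at −1.44 and 0.59, the latter without a call. In EZH2i NFE2 and MAF, at −1.03, were called lower, out of 18 that could have passed, against 4.42% of all genes. Both were above the expression minimum in vehicle but not in EZH2i, so they could only be called lower. NFE2 was below it in CDK2i too. ATF2, a partner of JUN, was at 0.93 in EZH2i without a call. The median log2 change of the 26 expressed genes was −0.28 in CDK2i and 0.10 in EZH2i.

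Of the upstream kinases and serum response factor partners, 16 of 29 expressed genes were above their vehicle level in CDK2i and 13 below, with a median log2 change of 0.04. The values ran both ways, with none of 13 called higher and MKL1, a coactivator of serum response factor, called lower (−1.29). MKL1 was above the expression minimum in vehicle but not in CDK2i, so it could only be called lower. Over all genes, 3.27% were called higher and 8.07% lower in CDK2i. MAP2K1 and MAPK3, which encode the kinases MEK1 and ERK1, differed from vehicle by 0.78 and 0.72. Below the expression minimum, MAPK7 was at −1.14 and RPS6KA2 at 1.10, and both were singled out after their values were seen. In EZH2i 4 of 20 were called higher, namely ELK3 (3.17 FPKM with vehicle and 12.7 in EZH2i), RPS6KA3 and ELK4, at log2 changes of 1.54 and 1.48, and MAP3K7, against 8.93% of all genes. All 4 were below log2 FPKM 3 in vehicle, so they could only be called higher. On this list 12 genes were above that minimum in vehicle and 20 in EZH2i. ELK3 and ELK4 encode partners of serum response factor. The median there was 0.39. SRF itself, the gene for serum response factor, was at 18.0, 17.6 and 20.1 FPKM in vehicle, CDK2i and EZH2i.

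**Figure D4:**
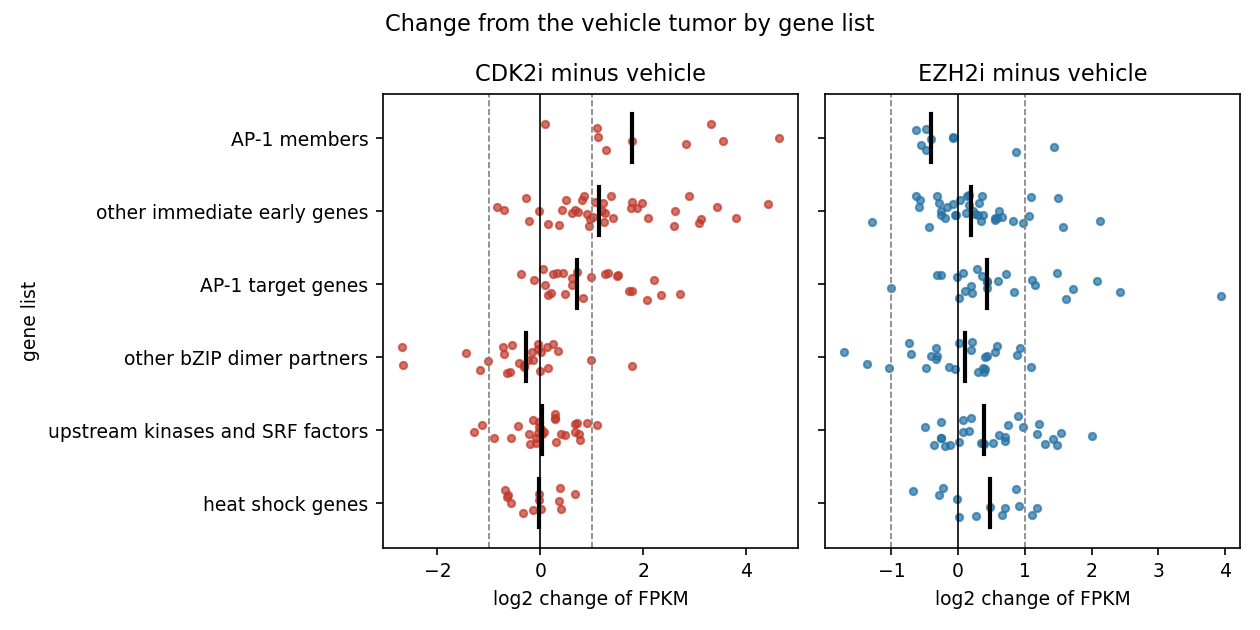
Each point is the log2 change of FPKM (x axis) of 1 gene in CDK2i (left) or EZH2i (right) against vehicle, by gene list (y axis), with the list median as a black bar and the 2-fold threshold dashed. The AP-1 list (9 genes) had its median at 1.79 in CDK2i and −0.40 in EZH2i, and the 38 other immediate early genes at 1.13 and 0.19. The AP-1 list kept ATF3, which was not among the expressed genes, whereas the other lists show expressed genes only.

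Stress and other cell types were looked at beside these values. None of 12 heat shock genes that could have passed was called in CDK2i, where the median log2 change of 13 expressed genes was −0.03. Over all genes that could have passed, 3.27% were called higher and 8.07% lower in CDK2i, and 8.93% and 4.42% in EZH2i. HSPB1 was at 0.67, DNAJB1 at −0.68 and HSPE1 at −0.62. The largest difference on the list was below the expression minimum, in the stress-inducible HSPA6, which measured 0.765 (vehicle), 4.36 (CDK2i) and 0.582 FPKM (EZH2i), a log2 change of 2.51 in CDK2i. With a minimum of log2 FPKM 1, or with none, 1 heat shock gene was called higher in CDK2i. HSPA6 was singled out after its values were seen. In EZH2i 1 of 12 heat shock genes that could have passed was called higher, HSPH1 at 1.19. HSPD1 and DNAJA1 were at 0.91 and 0.87, and the median was 0.48. The 11 epithelial markers summed to 16387 FPKM in CDK2i, 7677 with vehicle and 6799 in EZH2i. All 11 could have passed, and 4 were called higher in CDK2i (KRT14, KRT6A, KRT17 and KRT5). KRT6A is also on the list of AP-1 target genes and was counted there too. In EZH2i TP63 and EGFR were called higher and KRT19 lower. With the trend over GC content and length removed, none of the epithelial or heat shock genes was called in EZH2i. The part of these markers in the AP-1 values was not tested.

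Human macrophage and endothelial markers were at or near 0. Over 7 macrophage genes the sum was 2.95 to 4.12 FPKM in the 3 libraries, most of it ITGAM, with CD68 at 0.0318 FPKM in vehicle and listed at 0 in the treated tumors. The 8 endothelial genes summed to 0.937 to 1.06 FPKM. The 11 lymphocyte genes summed to 40.8 (vehicle), 11 (CDK2i) and 54.3 FPKM (EZH2i), of which GNLY made up 38.2, 8.75 and 52.9. GNLY, the only lymphocyte gene that could have passed, was called lower in CDK2i, against 8.07% of all genes. PTPRC, which marks all leukocytes, was at most 0.0224 FPKM. The 10 fibroblast genes summed to 25.6, 40.0 and 32.2 FPKM, with COL1A1 at 13.0, 25.1 and 16.1, and LUM called higher in CDK2i (1.02). LUM was 1 of 2 fibroblast genes that could have passed in CDK2i, against 3.27% of all genes called higher. It was above the expression minimum in CDK2i alone, so it could only be called higher. With a pseudocount of 1, and under the reduced-sum scaling, 0 fibroblast genes were called higher in CDK2i. The host was a mouse, and whether mouse fragments were removed before alignment to the human genome is not given in the sources used here. The part of these cells in the AP-1 values was not tested.

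Genes with a pattern like that of 3 members were taken by the distance between their pairs of log2 changes (CDK2i and EZH2i against vehicle) over 3 libraries, among 7564 genes. Nearest to FOS were DUSP1 at a distance of 0.30, IL17C at 0.72 and IER3 at 0.84. Nearest to JUNB were MGC20647 at 0.56, NR4A1, an orphan nuclear receptor gene, at 0.66 and SOCS3 at 0.80. Nearest to FOSL1 were PANX1 at 0.09, MTPN at 0.16 and SFRP1 at 0.18, with log2 changes of 1.18, 1.43 and 1.38 in CDK2i and 1.41, 1.43 and 1.29 in EZH2i.

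The transcripts also differed in a feature known from unstable mRNA, the pentamer ATTTA. The longest coding transcript of FOS held 5 in 2104 bases, or 2.38 per kb, more than in 83.7% of genes with a coding transcript. MAFF held 1.63 per kb, ATF3 1.55, FOSL2 1.34, JUNB 1.09, JUND 1.04, JUN 0.921, FOSB 0.795, FOSL1 0.588 and BATF none, against a median of 0.973 over 19807 genes. The pentamers were counted over the whole transcript, and their part in the AP-1 values was not tested.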

How the data were processed

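RNAseq was compared between single SUM-149 xenograft libraries for vehicle, CDK2i and EZH2i, 1 per condition. The authors deposited log2 FPKM for each gene symbol, computed with GRCh37/hg19 as reference and annotation. The submitters' processing notes name STAR and CASAVA, and versions, counting tool and annotation release are not given in the sources used here. A deposited −9 was read as an FPKM of 0. All columns of the table were mapped to a sample by its label.

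From these values, differences of log2 FPKM were computed without a pseudocount. Calls needed a difference above 2-fold and a level above log2 FPKM 3 in one of both libraries. The study's p-value cutoff was left out, because single libraries allow no test. Depth was taken as the commonest value of the 1-fragment step among low genes, with longest transcripts of GENCODE 44 on GRCh37. Fragment numbers are approximate. Their 95% intervals are exact conditional binomial intervals of a ratio, and they and the floor of 3 counts for a listed 0 cover counting error only. GC content and length were matched for 92.6% of expressed genes and all 10 members, and their trend was fitted with a polynomial of degree 3. Promoter sequences came from the RefSeq table (GRCh38.p14) and were placed on GRCh37 by exact match.

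The members, gene lists, thresholds and alternatives were chosen with earlier results of these data known. The text names all members, from each list the 3 genes with the largest change in each tumor among those above log2 FPKM 3 in one of the libraries compared, and the 3 genes nearest to FOS, JUNB and FOSL1. Other genes named, such as those of a count of 5 or fewer, were chosen after their values were seen. Some genes that this rule names are not reported here. Of the fixed lists, 1 of 36 target genes, 5 of 12 macrophage, 2 of 13 lymphocyte and 2 of 10 endothelial symbols are not analysed here. The functions were tested on simulated data. Python 3.11.15, numpy 2.4.6, pandas 2.3.3, scipy 1.17.1 and matplotlib 3.10.9 were used.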

Additional observations from a re-analysis of the deposited data

How the results depend on the processing

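The values were recomputed with fold thresholds of 1.5 and 3, without an expression minimum or with one of log2 FPKM 1 or 5, pseudocounts of 0.1 and 1, 3 other scalings, and the removal of the trend over GC content and length. With a fold threshold of 3, 4 members were called higher in CDK2i and 0 in EZH2i. With a threshold of 1.5, and also with equal summed FPKM, 2 were called higher in EZH2i. Without an expression minimum, 1 member was called lower in CDK2i and 1 in EZH2i. It was BATF, at 1 fragment in the vehicle tumor. With a pseudocount of 1, the median log2 change of the members was 1.26 in CDK2i and −1.65 for EZH2i against CDK2i. The scaling moved the split of all calls, from 28.9% higher in CDK2i and 66.9% in EZH2i to 17.6% to 48.8% in CDK2i and 35.5% to 88.9% in EZH2i. The median over all expressed genes, −0.11 in CDK2i and 0.19 in EZH2i, ran from −0.26 to 0.06 and from −0.02 to 0.43. Of 162 recomputed changes of single members, 86 stayed within their counting interval and 76 moved beyond it, and no change past the fold threshold turned its sign. The depth ratios from fragment steps alone were 1.14, 1.044 and 0.916, against 1.14, 1.044 and 0.915 with gene lengths. In approximate fragments, an alternative chosen after seeing the data, FOS made up 19.5% of its family in vehicle, 76.7% in CDK2i and 25.1% in EZH2i.

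With 1 library per condition, none was left out in turn. No paired analysis was possible because each condition has a single library.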

Other observations

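The protein-coding genes beside the AP-1 genes were looked at after the members' values were seen. Next to FOS on chromosome 14, TMED10 had log2 changes of 0.40 (CDK2i) and 0.36 (EZH2i). JDP2, which encodes a bZIP repressor of AP-1 and lies between FOS and BATF, measured 1.36 (vehicle), 0.706 (CDK2i) and 0.687 FPKM (EZH2i). Next to JUNB on chromosome 19, PRDX2 had log2 changes of 0.52 (CDK2i) and −0.42 (EZH2i). Next to JUN on chromosome 1, MYSM1 had log2 changes of 0.23 (CDK2i) and 1.58 (EZH2i). Beside FOSL1 on chromosome 11, CCDC85B, which lies 0.4 kb away, changed by 0.58 in CDK2i and −0.28 in EZH2i, where FOSL1 was at 1.44. Of the 2 nearest genes on each side of each member, the largest positive log2 change in CDK2i other than that of FOS was 1.33, in BEST2 near JUNB, and the most negative was −2.19, in the lowly expressed KIAA1683 near JUND.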
